A study of Homo sapiens with 8 samples.

Results

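The genes described here encode the machinery that puts peptides on MHC class I molecules at the cell surface. They were chosen by name, not by their values: HLA-B, HLA-C, HLA-E, B2M, TAP1, TAP2, TAPBP, NLRC5 and ERAP1, which make up 9 of the 63677 gene rows in the deposited table. All 9 passed the filter on low values, a minimum of 10 normalized reads in 4 or more libraries, which left 19559 genes for testing. HLA-B, HLA-C, HLA-E, TAP1, TAP2 and TAPBP each had 5 to 8 Ensembl identifiers in the table, of which 1 held reads, and that one was used. B2M, NLRC5 and ERAP1 had 1 identifier each.

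A class I molecule is a heavy chain, encoded by an HLA gene, bound to β2-microglobulin (B2M) and to a short peptide. Proteasomes make the peptides in the cytosol, the TAP1-TAP2 transporter carries them into the endoplasmic reticulum, tapasin (TAPBP) holds empty heavy chains at the transporter, and the aminopeptidase ERAP1 trims the peptides to length. NLRC5 is a transactivator that acts at the promoters of many of these genes, and interferons raise most of them. Tumour cells can lose surface class I through any of these steps.

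RNA was sequenced from LY2 cells, an endocrine-resistant line derived from the MCF-7 breast cancer line. One group, shSRC1 (4 libraries), stably carried short hairpin RNA against NCOA1, which encodes the nuclear receptor coactivator SRC-1, and the other, shNT (4 libraries), carried a non-targeting hairpin. Both groups were grown with 500 ng/mL puromycin and 1e-08 M 4-hydroxytamoxifen, the active tamoxifen metabolite, were kept free of steroids for 72 h, and then received 1e-07 M 4-hydroxytamoxifen for 8 h. There was thus no arm without 4-hydroxytamoxifen and no arm with added interferon. How many hairpins were used and whether the lines are clones or pools is not given in the sources used here, and nothing says that the 4 libraries of a group came from separate cultures. The p-values below therefore set the difference between the groups against the spread among these libraries, and that spread may be technical only.

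NCOA1 itself had 1927, 1895, 2215 and 2107 normalized reads in shSRC1 replicates 1 to 4, against 4381, 4212, 4467 and 4525 in shNT replicates 1 to 4, with a log2 fold change of -1.11 (standard error 0.08, limma adjusted p = 2.25e-07). Normalized reads are read counts divided by a size factor for each library. The libraries held 33771775 to 66248960 reads assigned to genes in shSRC1 and 58459196 to 67022036 in shNT, with shSRC1 replicate 2 the shallowest. shNT replicate 3 stood apart in its ribosomal protein genes: the median deviation of 81 such genes from their mean over all libraries was -0.69 (log2) there, against 0.20 to 0.29 in the shSRC1 libraries and -0.19 to -0.03 in the other shNT libraries. Mitochondrial transcripts took 5.28% to 5.90% of reads in shSRC1 and 5.91% to 7.88% in shNT. Epithelial markers of the labelled line were abundant, with KRT8 at 210603 ± 16358 normalized reads in shSRC1 and 132214 ± 19149 in shNT (SD, n = 4 each). Of 9 luminal markers, KRT8, KRT18, KRT19 and XBP1 were higher in shSRC1, with log2 fold changes of 0.68, 0.47, 0.68 and 0.58, and the other 5, ESR1 and GATA3 among them, did not pass.

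Of the 9 genes, NLRC5 and ERAP1 were lower and HLA-E was higher in shSRC1, and HLA-B, HLA-C, B2M, TAP1, TAP2 and TAPBP did not pass the test. The test was limma on log2(normalized reads + 1) over all 19559 genes with Benjamini-Hochberg adjustment and a threshold of 0.05. Over all genes the same test called 23.2% in either direction, 12.0% higher and 11.2% lower, so 3 calls among 9 genes are not read here as a property of the group. The same shares are the background for the counts of each gene list below, and no list was tested as a set. In those 3 genes the 4 shSRC1 libraries did not overlap the 4 shNT libraries, which was also so for 29.0% of all tested genes. The median log2 fold change of the 9 genes was -0.149, against -0.002 over all tested genes, and their median absolute log2 fold change was 0.188, against 0.237. edgeR, which called 22.8% of all genes, and DESeq2, which called 27.1%, each called the same number of the 9 genes, 3. Without shNT replicate 3 the count was 5, with B2M and TAP1 added as lower. Over the settings that leave out 1 library, the same test called 3124 to 4776 of all genes.

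**Figure D1:**
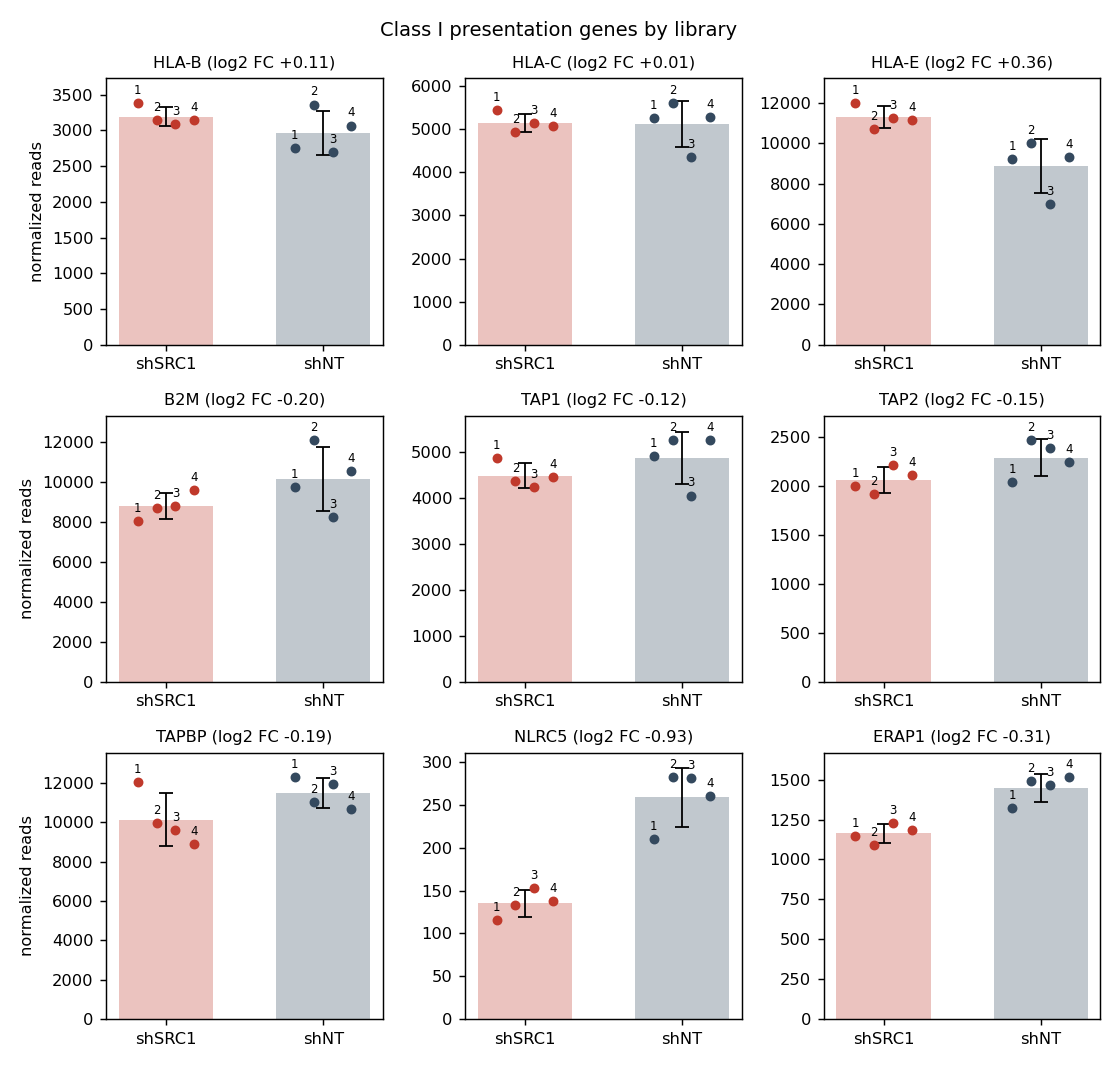
Normalized reads of the 9 class I presentation genes in each library, with shSRC1 on the left and shNT on the right of each panel. Points are libraries marked with their replicate number, bars are group means from 0 and whiskers are ±1 SD over 4 libraries. HLA-E, NLRC5 and ERAP1 have groups that do not overlap, and shNT replicate 3 is the lowest shNT library for HLA-B, HLA-C, HLA-E, B2M and TAP1.

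The promoters of these genes carry elements through which interferon-regulated factors and the NLRC5-bearing complex are known to act, so the start regions of 4 class I genes are shown, together with that of PSMB9, the immunoproteasome gene that sits head to head with TAP1. Each sequence is a window of 300 bases, most of it upstream of the gene's start, in RefSeq's table for GRCh38.p14, and is the reference sequence, not that of LY2 cells. Capitals mark the IRF core AANNGAAA, the CCAAT box and the core of the X2 element, TGACG, searched on both strands. The regions are chr6:31357130-31357429 (minus strand) for HLA-B, chr15:44711267-44711566 (plus strand) for B2M, chr6:32853655-32853954 (minus strand, the first of 2 listed starts) for TAP1, chr6:32853942-32854241 (plus strand) for PSMB9 and chr5:96807896-96808195 (minus strand, the first of 2 listed starts) for ERAP1.
HLA-B: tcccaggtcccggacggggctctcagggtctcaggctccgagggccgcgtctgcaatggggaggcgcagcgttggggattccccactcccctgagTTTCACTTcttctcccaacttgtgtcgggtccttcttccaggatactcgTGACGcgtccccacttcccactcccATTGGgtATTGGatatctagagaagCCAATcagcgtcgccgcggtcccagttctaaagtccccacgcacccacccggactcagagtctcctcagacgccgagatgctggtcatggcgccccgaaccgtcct
B2M: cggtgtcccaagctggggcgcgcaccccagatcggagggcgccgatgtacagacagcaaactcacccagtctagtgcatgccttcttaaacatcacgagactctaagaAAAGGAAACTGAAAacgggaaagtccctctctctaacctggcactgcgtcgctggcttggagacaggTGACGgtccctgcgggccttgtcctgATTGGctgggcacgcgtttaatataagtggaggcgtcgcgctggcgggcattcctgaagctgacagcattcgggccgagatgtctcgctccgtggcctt
TAP1: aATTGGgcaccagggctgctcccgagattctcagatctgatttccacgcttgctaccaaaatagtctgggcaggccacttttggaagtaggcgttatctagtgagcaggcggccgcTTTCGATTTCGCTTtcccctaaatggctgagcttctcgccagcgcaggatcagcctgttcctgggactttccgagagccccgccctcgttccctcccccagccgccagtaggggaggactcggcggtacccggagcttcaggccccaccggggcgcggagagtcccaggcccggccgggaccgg
PSMB9: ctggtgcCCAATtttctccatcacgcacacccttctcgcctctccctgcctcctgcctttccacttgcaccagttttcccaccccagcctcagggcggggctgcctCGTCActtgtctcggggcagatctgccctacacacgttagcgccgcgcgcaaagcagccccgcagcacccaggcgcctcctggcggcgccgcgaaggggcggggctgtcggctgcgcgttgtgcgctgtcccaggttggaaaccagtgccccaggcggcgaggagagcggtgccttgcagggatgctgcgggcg
ERAP1: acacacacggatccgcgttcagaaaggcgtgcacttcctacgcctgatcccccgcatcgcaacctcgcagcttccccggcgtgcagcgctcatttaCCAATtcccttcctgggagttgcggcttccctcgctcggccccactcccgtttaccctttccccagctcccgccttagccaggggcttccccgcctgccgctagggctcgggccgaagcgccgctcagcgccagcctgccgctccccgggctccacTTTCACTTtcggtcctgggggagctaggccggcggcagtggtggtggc

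Promoters were found for 7 of the 9 genes, the exceptions being HLA-E and NLRC5. The IRF core was present in 7 of these 7, against 23.2% of 27305 promoters in the table. The longer interferon-stimulated response element GAAANNGAAA, which contains an IRF core, was present in 5, namely B2M, TAP1, TAP2, TAPBP and ERAP1, against 3.65% of all promoters. In ERAP1 the only match to both begins 3 bases past the start, not upstream of it. HLA-B and HLA-C have the shorter core alone, 155 and 151 bases before their starts. The CCAAT box was present in 5 of the 7 promoters (35.7% of all) and the X2 core in 4, those of HLA-B, HLA-C, B2M and TAP2 (25.0% of all). In HLA-B the X2 core lies 106 bases before the start, followed by CCAAT boxes on either strand at 81, 74 and 56 bases. The κB letters GGGNNTTCC occurred in HLA-B, B2M, TAPBP and ERAP1 (6.6% of all), and the GAS letters TTCNNNGAA in none of the 7 (7.88% of all). The κB search allowed this spacing only and so passed over gggactttcc in the TAP1 window. A gene without a match may still hold a κB site. The starts of TAP1 and PSMB9 are 488 bases apart and their windows share 13 bases, and the PSMB9 window holds no IRF core. The motifs were chosen with the sequences in view, and a match describes letters, not binding.

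NLRC5, the class I transactivator, showed the largest change of the 9 genes. It had 116, 133, 153 and 138 normalized reads in shSRC1 replicates 1 to 4, against 210.0, 283, 282 and 261 in shNT replicates 1 to 4. Every shSRC1 library was below every shNT library. The mean was 135 ± 15.2 in shSRC1 and 259 ± 34.3 in shNT (SD, n = 4 each), a ratio of 0.521 and a log2 fold change of -0.93 (SE 0.14, 95% CI -1.24 to -0.63, limma adjusted p = 0.000432). The values rest on 517 reads in shSRC1 and 1139 in shNT. An exact two-sided permutation test of the 8 values gave p = 0.0286, the smallest that 4 against 4 allows. NLRC5 passed the threshold under each of 20 alternative settings, with log2 fold changes of -1.03 to -0.86. No exon of another gene overlapped NLRC5 in GENCODE 29, and none of its 50-base windows occurred in a transcript of another gene.

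NLRC5 reaches DNA through the SXY enhanceosome, the RFX, NF-Y and CREB/ATF proteins that also carry CIITA, its class II counterpart. Of 9 genes of that complex, 1 was lower in shSRC1 and 8 did not pass. The one that fell was NFYB, a CCAAT-binding subunit, with 3990.2 ± 450.0 normalized reads in shSRC1 and 5275 ± 262 in shNT and a log2 fold change of -0.41 (standard error 0.09, limma adjusted p = 0.00515), which a length and GC correction moved to -0.22 (limma adjusted p = 0.0129). RFX5, the large RFX subunit, had a log2 fold change of -0.11 (limma adjusted p = 0.324). CIITA averaged 43.5 ± 11.0 normalized reads in shSRC1 and 39.9 ± 3.24 in shNT, with a log2 fold change of 0.09 (limma adjusted p = 0.802). DESeq2 called 4 of the 9 genes and upper-quartile scaling 3, and leaving out shSRC1 replicate 3 gave 2.

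Among the heavy chains, HLA-E, the non-classical chain that shows leader peptides of other class I molecules to NK cell receptors, was higher in shSRC1. It had 12015, 10716, 11262 and 11145 normalized reads in shSRC1 replicates 1 to 4, against 9199.8, 9997, 6964 and 9329 in shNT replicates 1 to 4. The groups did not overlap, but shNT replicate 3 lay well below the other shNT libraries. The mean was 11284 ± 540 in shSRC1 and 8872 ± 1319 in shNT (SD, n = 4 each), a ratio of 1.27. The log2 fold change was 0.36 (SE 0.10, 95% CI 0.14 to 0.58, limma adjusted p = 0.0232), and the exact permutation test gave p = 0.0286. The call was lost without shSRC1 replicate 1, with a log2 fold change of 0.33 (limma adjusted p = 0.0689), and without shSRC1 replicate 3, with 0.36 (limma adjusted p = 0.0501). Without shNT replicate 3 it held at 0.25. The ribosomal protein genes also stood higher in the shSRC1 libraries and lowest in shNT replicate 3, and their part in the HLA-E difference was not tested.

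The classical heavy chains HLA-B and HLA-C, which present peptides to CD8 T cells, did not pass the test. HLA-B had 3390.3, 3147, 3093 and 3144 normalized reads in shSRC1 replicates 1 to 4, against 2752, 3364, 2701 and 3069.8 in shNT replicates 1 to 4, and HLA-C had 5446, 4932, 5141 and 5079.6, against 5261, 5622, 4365 and 5280.3. For both genes the shSRC1 values lay within or close to the shNT range, and the shNT libraries spread more widely. HLA-B averaged 3194 ± 133 in shSRC1 and 2972 ± 308 in shNT, with a log2 fold change of 0.11 (SE 0.09, 95% CI -0.08 to 0.29, limma adjusted p = 0.373, exact permutation p = 0.2). HLA-C averaged 5149.5 ± 216 in shSRC1 and 5132 ± 537 in shNT, with a log2 fold change of 0.01 (SE 0.09, 95% CI -0.18 to 0.20, limma adjusted p = 0.943, exact permutation p = 0.971). The interval for HLA-C leaves room for a change of about 0.2 in either direction, and its sign turned under 7 of 20 alternative settings, from -0.07 to 0.06.

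The further class I heavy-chain genes read here were HLA-F, HLA-G, HLA-H, HFE and MR1, with CD1D too low to test. None of the 5 rose, 1 fell and 4 did not pass, with a median log2 fold change of 0.13. HFE, a class I-like protein that regulates iron uptake and presents no peptide, was the one that fell. It averaged 216 ± 41.2 normalized reads in shSRC1 and 357 ± 42.6 in shNT, with a log2 fold change of -0.73 (standard error 0.14, limma adjusted p = 0.00274). HLA-G had the highest log2 fold change of the 5, 0.47 (standard error 0.17, limma adjusted p = 0.0514), with groups that did not overlap. It passed as higher under 3 of 20 alternative settings, which gave 2 calls in place of 1. These were a minimum of 50 normalized reads, leaving out shSRC1 replicate 4, and a block for the replicate number. Reads of near-identical HLA genes could have been split or lost in counting, and alleles of LY2 cells that differ from the reference could map poorly. In GENCODE 29, 2.54% of the 50-base windows of the longest HLA-B transcript, 6.39% of those of HLA-C and 5.13% of those of HLA-E occur in a transcript of another gene.

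B2M, the light chain of HLA-B, HLA-C and HLA-E molecules, did not pass the test. It had 8043, 8730.2, 8824 and 9635 normalized reads in shSRC1 replicates 1 to 4, against 9748, 12132, 8283 and 10573 in shNT replicates 1 to 4. The groups overlapped through shNT replicate 3, the lowest shNT library. B2M averaged 8808 ± 652 in shSRC1 and 10184 ± 1607 in shNT, with a log2 fold change of -0.20 (SE 0.11, 95% CI -0.43 to 0.03, limma adjusted p = 0.188, exact permutation p = 0.171). It passed without shNT replicate 3, at -0.29 (limma adjusted p = 0.0204), and without both shNT replicate 3 and shSRC1 replicate 2, at -0.29 (limma adjusted p = 0.0388).

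Ratios of genes within a library do not depend on the size factor, and all those given were chosen after values had been seen. HLA-E made up 57.6%, 57.0%, 57.8% and 57.5% of the summed HLA-B, HLA-C and HLA-E reads in shSRC1 replicates 1 to 4, against 53.4%, 52.7%, 49.6% and 52.8% in shNT replicates 1 to 4. The share was higher in every shSRC1 library, with means of 57.5% ± 0.328 in shSRC1 and 52.1% ± 1.70 in shNT (exact permutation p = 0.0286). The sum of the 3 genes was 19628 ± 870 normalized reads in shSRC1 and 16976 ± 2102 in shNT, with groups that overlapped. The log2 ratio of HLA-E to HLA-C averaged 1.13 ± 0.00913 in shSRC1 and 0.783 ± 0.0734 in shNT, a difference of 0.35. The log2 ratio of HLA-E to B2M was 0.579, 0.296, 0.352 and 0.21 in the shSRC1 libraries, against -0.0835, -0.279, -0.25 and -0.181 in the shNT libraries, a difference of 0.56. HLA-E thus had more reads than B2M in all 4 shSRC1 libraries and fewer in all 4 shNT libraries.

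**Figure D2:**
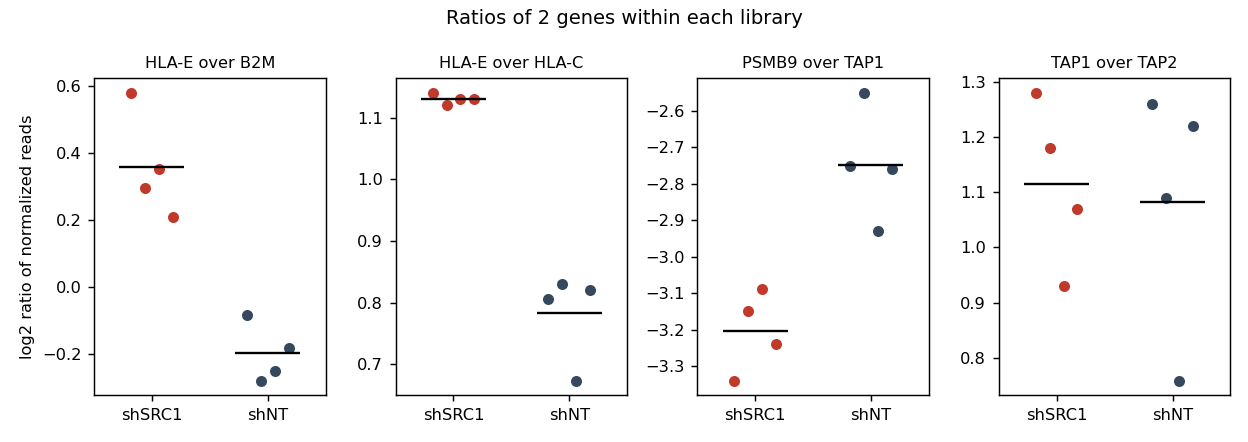
Log2 ratios of normalized reads of 2 genes within each library, with shSRC1 on the left and shNT on the right of each panel; points are libraries and lines are group means of 4. The panels have different vertical ranges. The groups are apart for HLA-E over B2M, HLA-E over HLA-C and PSMB9 over TAP1, and overlap for TAP1 over TAP2.

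The transporter subunits TAP1 and TAP2 did not pass the test. TAP1 had 4855, 4356, 4231 and 4436 normalized reads in shSRC1 replicates 1 to 4, against 4899.6, 5255, 4044 and 5247 in shNT replicates 1 to 4. TAP2 had 2005, 1916, 2218 and 2114 in shSRC1, against 2047, 2475, 2389.7 and 2252 in shNT. Both pairs of groups overlapped. TAP1 averaged 4469.7 ± 271 in shSRC1 and 4861 ± 569 in shNT, with a log2 fold change of -0.12 (SE 0.09, 95% CI -0.31 to 0.08, limma adjusted p = 0.385, exact permutation p = 0.257). TAP2 averaged 2063 ± 131 in shSRC1 and 2291 ± 187 in shNT, with a log2 fold change of -0.15 (SE 0.09, 95% CI -0.33 to 0.03, limma adjusted p = 0.216, exact permutation p = 0.114). The log2 ratio of the 2 subunits averaged 1.12 ± 0.149 in shSRC1 and 1.08 ± 0.227 in shNT, with groups that overlapped. TAP1 passed without shNT replicate 3, at -0.20 (limma adjusted p = 0.0484). In GENCODE 29, 35.8% of the 50-base windows of the longest TAP2 transcript also occur in another gene, chiefly AL669918.1, an annotated coding gene on the same strand that shares TAP2 exons, so the TAP2 counts are uncertain. Exons of the noncoding gene PSMB8-AS1 cover 9.49% of the exonic bases of TAP1 on the opposite strand.

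TAPBP, the tapasin gene, had 12044, 9988, 9634.5 and 8921 normalized reads in shSRC1 replicates 1 to 4, against 12318, 11032, 11976 and 10702 in shNT replicates 1 to 4. The groups overlapped through shSRC1 replicate 1, whose value was above those of the other shSRC1 libraries. TAPBP averaged 10147 ± 1340.3 in shSRC1 and 11507 ± 764 in shNT, with a log2 fold change of -0.19 (SE 0.10, 95% CI -0.39 to 0.02, limma adjusted p = 0.169, exact permutation p = 0.143). It passed without shSRC1 replicate 1, at -0.27 (limma adjusted p = 0.0425), and with a correction for transcript length and GC content, at -0.20 (limma adjusted p = 0.0459). In shSRC1 replicate 1, the deviation of all genes from their mean correlated with their GC content across genes (Spearman rho 0.48). The longest TAPBP transcript has a GC content of 57.6%, and the part of GC content in the TAPBP values was not tested.

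Of 7 further genes of peptide loading and folding in the endoplasmic reticulum, 2 were higher in shSRC1, none was lower and 5 did not pass. TAPBPL, the tapasin-related peptide editor, averaged 576 ± 25.0 normalized reads in shSRC1 and 451 ± 43.6 in shNT, with a log2 fold change of 0.36 (limma adjusted p = 0.0208). HSPA5, the chaperone BiP, averaged 26909.9 ± 1130.3 in shSRC1 and 22121 ± 1926 in shNT, with 0.29 (limma adjusted p = 0.0293). The partners of tapasin in the loading complex, calreticulin (CALR), calnexin (CANX) and the thiol oxidoreductase PDIA3, had log2 fold changes of 0.08, 0.06 and 0.14 (limma adjusted p = 0.588, 0.633 and 0.24). HSP90B1, the chaperone GRP94, averaged 22398.5 ± 3527.5 in shSRC1 and 27327 ± 1892.8 in shNT, with -0.30 (limma adjusted p = 0.0603), and passed as lower under 6 of 20 alternative settings, DESeq2 among them (adjusted p = 0.0306). The count of calls on the list was 3 under DESeq2 and with a length and GC correction, 1 without shSRC1 replicate 1, 2, 3 or 4, and 0 without shNT replicate 4. TAPBPL was lost without shSRC1 replicate 1 or 4 or shNT replicate 4 (limma adjusted p = 0.0501 to 0.0527), and HSPA5 without shSRC1 replicate 2, 3 or 4 or shNT replicate 4 (limma adjusted p = 0.0573 to 0.0802).

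ERAP1, the aminopeptidase that trims peptides in the endoplasmic reticulum, was lower in shSRC1. It had 1149.7, 1090.0, 1229 and 1187 normalized reads in shSRC1 replicates 1 to 4, against 1321, 1491, 1464 and 1518 in shNT replicates 1 to 4. Every shSRC1 library was below every shNT library. The mean was 1164 ± 58.8 in shSRC1 and 1449 ± 87.6 in shNT (SD, n = 4 each), a ratio of 0.803. The log2 fold change was -0.31 (SE 0.08, 95% CI -0.49 to -0.14, limma adjusted p = 0.0148), and the exact permutation test gave p = 0.0286. The call was lost without shSRC1 replicate 2, at -0.28 (limma adjusted p = 0.0531), and a length and GC correction moved the value to -0.20 (limma adjusted p = 0.0412). On the opposite strand, exons of CAST, the calpastatin gene, cover 3.76% of the exonic bases of ERAP1 in GENCODE 29. CAST was also lower in shSRC1, with a log2 fold change of -0.324 (limma adjusted p = 0.0102), and since the library kit is not described as stranded, reads from the overlap cannot be told apart.

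ERAP2, the partner of ERAP1 that trims other peptides and lies beside it on chromosome 5, had the larger fold change. It had 66.5, 52.5, 89.1 and 83.4 normalized reads in shSRC1 replicates 1 to 4, against 120.0, 145, 201 and 145 in shNT replicates 1 to 4. No library of one group reached into the other. The mean was 72.8 ± 16.6 in shSRC1 and 153 ± 34.6 in shNT, with a log2 fold change of -1.06 (standard error 0.20, limma adjusted p = 0.00226). The log2 ratio of ERAP2 to ERAP1 averaged -4.01 ± 0.269 in shSRC1 and -3.26 ± 0.273 in shNT, with groups that did not overlap (exact permutation p = 0.0286). That p is the smallest that 4 against 4 allows. The ratio was chosen after the values were seen, so its p is not separate evidence beside the ERAP2 call. Reads of ERAP2 thus dropped relative to those of ERAP1.

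Of the 8 other trimming peptidases on the list, ERAP2 included, 2 rose, 2 fell and 4 did not pass, with a median log2 fold change of -0.04. TPP2, a large cytosolic peptidase that works behind the proteasome, averaged 1379.6 ± 186 normalized reads in shSRC1 and 1944 ± 143 in shNT, with -0.50 (limma adjusted p = 0.00317). BLMH, bleomycin hydrolase, averaged 2962 ± 105 in shSRC1 and 2180.0 ± 188 in shNT, with 0.45 (limma adjusted p = 0.00191). NPEPPS, the puromycin-sensitive aminopeptidase, averaged 9071 ± 269 in shSRC1 and 7717.5 ± 88.9 in shNT, with 0.23 (limma adjusted p = 0.0306). The NPEPPS call was lost without shSRC1 replicate 2, 3 or 4 and without shNT replicate 1, 2 or 4 (limma adjusted p = 0.0538 to 0.0815), and with no filter on low values (0.078), while a length and GC correction moved the value to 0.42 (limma adjusted p = 0.00263).

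The immunoproteasome replaces the 3 catalytic subunits of the standard proteasome with PSMB8, PSMB9 and PSMB10, and the PA28 activator genes are PSME1 to PSME3. Of these 6 genes, PSMB9 was lower in shSRC1 and 5 did not pass. PSMB9 had 479, 490.0, 497 and 470.0 normalized reads in shSRC1 replicates 1 to 4, against 728, 895, 531 and 771 in shNT replicates 1 to 4. All shSRC1 libraries were lower, and shNT replicate 3 was the closest to them. The mean was 484 ± 11.8 in shSRC1 and 731 ± 151 in shNT, with a log2 fold change of -0.57 (standard error 0.13, limma adjusted p = 0.00746), and the call held under each of 20 alternative settings. PSMB8 averaged 1840.1 ± 22.0 in shSRC1 and 1729 ± 317 in shNT (log2 fold change 0.11, limma adjusted p = 0.503), and PSMB10 averaged 792 ± 102 in shSRC1 and 764 ± 96.4 in shNT (0.05, limma adjusted p = 0.779). Without shNT replicate 2, 2 of the 6 genes passed in place of 1.

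TAP1 and PSMB9 share the short region between their starts shown above but did not move alike in these libraries. The log2 ratio of PSMB9 to TAP1 was -3.34, -3.15, -3.09 and -3.24 in shSRC1 replicates 1 to 4, against -2.75, -2.55, -2.93 and -2.76 in shNT replicates 1 to 4. The ratio was lower in every shSRC1 library, with a difference of -0.45 (exact permutation p = 0.0286). This ratio too was chosen after the values were seen, and its p is the smallest that 4 against 4 allows. Against PSMB8 the difference in log2 ratio was -0.68, and against PSMB6, the standard subunit that PSMB9 replaces, it was -1.07. The exons of PSMB9 share 4.52% of their bases with PSMB8 on the opposite strand, and 5.66% with the noncoding gene PSMB8-AS1 on the same strand.

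Of the 3 standard catalytic subunits, 2 rose and 1 did not pass. PSMB6 averaged 9719 ± 418 normalized reads in shSRC1 and 6965 ± 1326 in shNT, with a log2 fold change of 0.50 (standard error 0.12, limma adjusted p = 0.00926). PSMB5 averaged 15827 ± 468 in shSRC1 and 12593 ± 2332 in shNT, with 0.35 (limma adjusted p = 0.0442), a call that was lost under 10 of 20 alternative settings, each of which left 1 of the 3 genes called. Among them were edgeR (adjusted p = 0.0523) and leaving out shSRC1 replicate 1, 2, 3 or 4 or shNT replicate 1 (limma adjusted p = 0.067 to 0.105). Without shNT replicate 3 the PSMB5 value was 0.21 (limma adjusted p = 0.0287). For both genes shNT replicate 3 was the lowest library, as it was for the ribosomal protein genes, and the part of that in the calls was not tested.

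**Figure D3:**
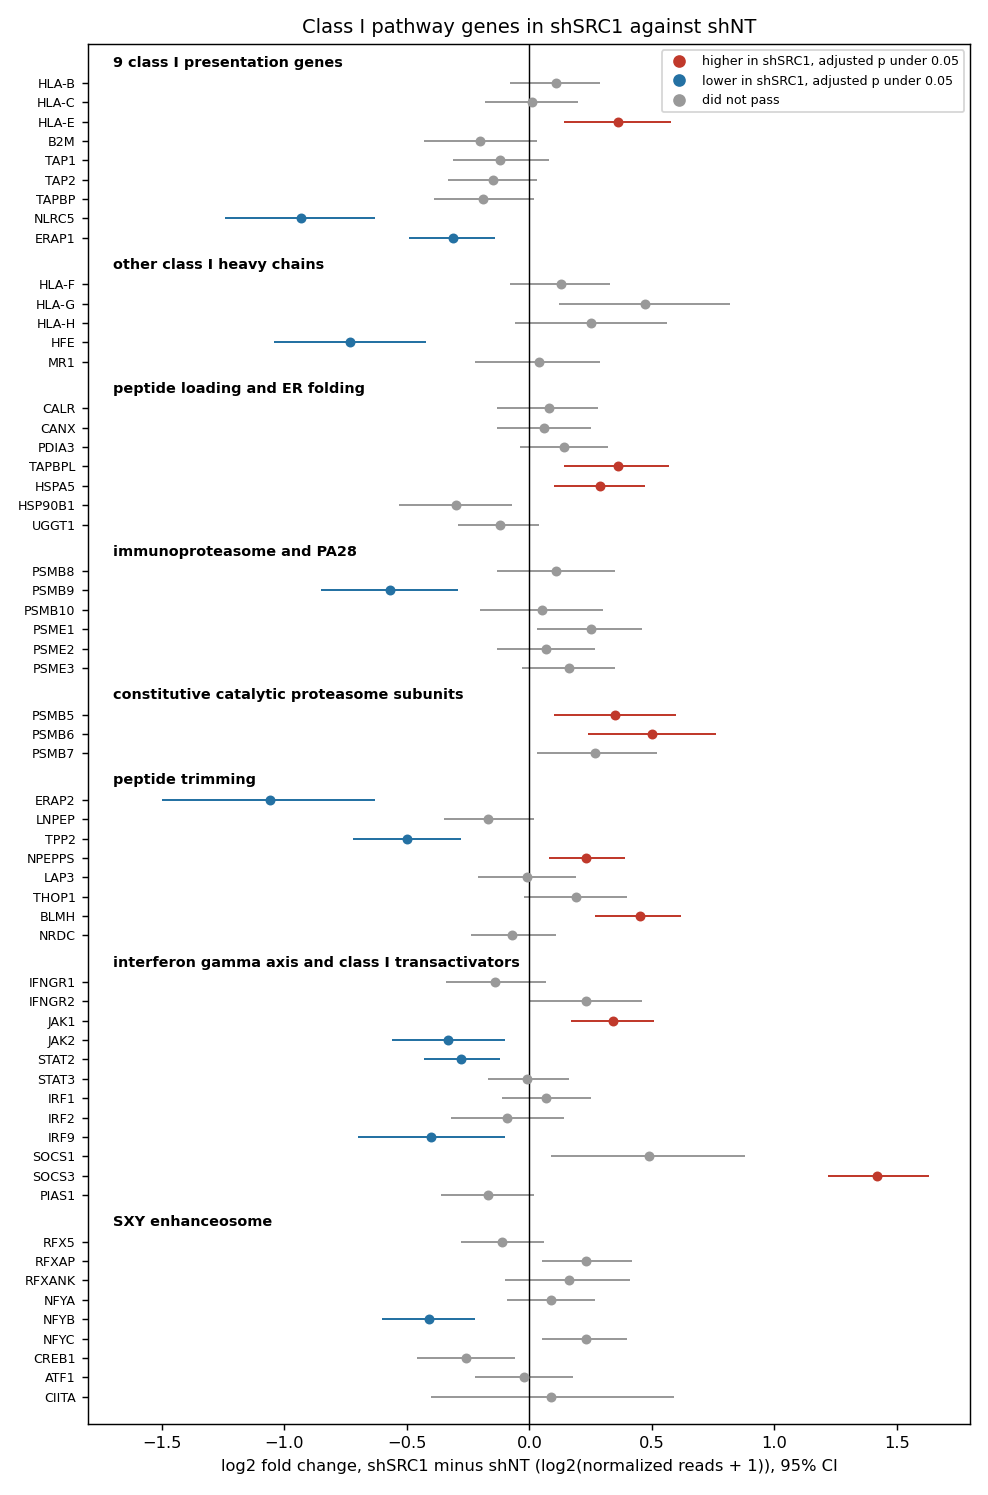
Log2 fold change of the 9 class I genes and of those of 7 pathway lists, shSRC1 minus shNT, on the log2(normalized reads + 1) scale, with its 95% confidence interval from limma over 4 libraries a group. Red marks genes higher and blue genes lower in shSRC1 at an adjusted p under 0.05, and grey those that did not pass. NF-κB and type I interferon genes are not drawn. Of the genes drawn, ERAP2 (-1.06), NLRC5 (-0.93), HFE (-0.73) and PSMB9 (-0.57) lie farthest to the left and SOCS3 (1.42) farthest to the right.

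Interferon gamma is the main inducer of NLRC5 and of the class I genes, through kinases such as JAK1 and JAK2 and the factor IRF1. Of 12 tested genes of that axis (IRF8 was too low to test), 2 rose, 3 fell and 7 did not pass. SOCS3, a feedback inhibitor of JAK-STAT signalling, averaged 3163 ± 57.2 normalized reads in shSRC1 and 1188 ± 171 in shNT, with a log2 fold change of 1.42 (standard error 0.10, limma adjusted p = 1.45e-07). JAK1 was higher, with 0.34 (limma adjusted p = 0.00784), and JAK2, STAT2 and IRF9 were lower, with -0.33, -0.28 and -0.40 (limma adjusted p = 0.0407, 0.0159 and 0.0496). IRF1 averaged 1133 ± 27.6 in shSRC1 and 1081.5 ± 86.7 in shNT (0.07, limma adjusted p = 0.578). JAK2 was -0.20 with a length and GC correction (limma adjusted p = 0.0499). The calls held under 12 (JAK2), 17 (STAT2) and 10 (IRF9) of 20 alternative settings, and for JAK2 and IRF9 the groups overlapped. The 5 calls became 2 with no filter on low values and without shSRC1 replicate 2 or 3, and 3 without shSRC1 replicate 1, shNT replicate 3 or shNT replicate 4.

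The type I interferon response, antiviral genes induced through STAT2 and IRF9, was read beside the class I genes. Of its 34 listed genes, none rose, 20 fell and 14 did not pass in shSRC1, with a median log2 fold change of -0.66. Over all tested genes, 11.2% were lower and 12.0% higher. IFI27 averaged 705 ± 90.5 normalized reads in shSRC1 and 4713 ± 1099 in shNT, with a log2 fold change of -2.72 (limma adjusted p = 1.08e-07). OAS3, which senses double-stranded RNA, had -0.69, the RNA sensor IFIH1 had -0.77, and the GTPase GBP2 had -0.85 (limma adjusted p = 9.47e-05, 0.000663 and 2.00e-04). Of the 9 class I genes, NLRC5 alone had a log2 fold change below that list's median. The median deviation of the 34 genes was -0.55, -0.43, -0.09 and -0.16 in shSRC1 replicates 1 to 4, against -0.08, 0.46, 0.43 and 0.44 in shNT replicates 1 to 4, so shSRC1 replicate 3 and shNT replicate 1 had nearly the same value. The count was 12 without shSRC1 replicate 1 and 13 without shNT replicate 4. The count over all genes also moved with 1 library left out, between 3124 and 4776, against 4538 in the main test.

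The κB sites of class I promoters are bound by NF-κB. Of 6 genes for its subunits and inhibitor, 1 rose, 2 fell and 3 did not pass. NFKB2, the p100 and p52 subunit, averaged 1434 ± 202 normalized reads in shSRC1 and 2135 ± 115 in shNT, with -0.58 (limma adjusted p = 0.000914). REL averaged 1042 ± 60.3 in shSRC1 and 1443 ± 254 in shNT, with -0.46 (limma adjusted p = 0.0099). NFKBIA, the inhibitor IκBα, had 0.25 (limma adjusted p = 0.0403), a call that held under 9 of 20 alternative settings. It was lost without shSRC1 replicate 1, 2, 3 or 4 and without shNT replicate 1 or 4 (limma adjusted p = 0.0595 to 0.0894).

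Levels can be compared between genes per kilobase of the longest transcript, which sets aside differences in length but not in the transcripts actually used. Over all 8 libraries the order of mean levels was B2M (3952 normalized reads per kilobase), HLA-E (3875), TAPBP (2880.3), HLA-C (2734), HLA-B (1993), TAP1 (1577), TAP2 (383), ERAP1 (238) and NLRC5 (28.9). In shSRC1 HLA-E led with 4338.5 ± 208 per kilobase, ahead of B2M with 3665.5 ± 271, and the 4 HLA-E values (4119.9 to 4619) lay above the 4 B2M values (3347 to 4009.6). In shNT B2M led with 4238 ± 669, and its range (3447 to 5049) overlapped that of HLA-E (2677 to 3843.5). TAPBP and HLA-C also overlapped each other across the libraries, from 2373 to 3277 for TAPBP and from 2322 to 2990 for HLA-C. The transactivator NLRC5 was the least abundant of the 9 in both groups, at 19.8 ± 2.23 per kilobase in shSRC1 and 37.9 ± 5.03 in shNT.

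Pairs of the 9 genes varied together to different degrees within groups. After subtracting each gene's group mean, Pearson's r over the 8 libraries was 1.00 between HLA-C and HLA-E, 0.94 between HLA-C and TAP1, 0.78 between HLA-B and HLA-C and 0.70 between HLA-C and B2M. High values were also found among TAP2, ERAP1 and NLRC5, with 0.87 for TAP2 and ERAP1, 0.86 for TAP2 and NLRC5 and 0.76 for NLRC5 and ERAP1. Between these 3 genes and HLA-B, HLA-C, HLA-E, B2M and TAP1 the values were lower, from -0.40 for TAP1 and NLRC5 to 0.35 for HLA-B and ERAP1. TAPBP had the lowest values, -0.65 with NLRC5, -0.64 with B2M, -0.49 with ERAP1 and -0.41 with TAP2. With HLA-B, HLA-C, HLA-E and TAP1 it had -0.05 to 0.05. Much of this pattern rested on shNT replicate 3. Without that library r was 1.00 for HLA-C and HLA-E, 0.73 for HLA-C and TAP1 and 0.10 for HLA-C and B2M, while it reached 0.80 for B2M and NLRC5 (0.24 with it), 0.75 for B2M and TAP2 (0.26 with it) and 0.57 for HLA-B and TAP2 (0.30 with it). Between TAP2, ERAP1 and NLRC5 and the genes HLA-B, HLA-C, HLA-E, B2M and TAP1, the lowest was then -0.21, for TAP1 and NLRC5. TAPBP then had -0.78 with NLRC5, -0.76 with B2M, -0.52 with ERAP1 and -0.5 with TAP2. With HLA-B, HLA-C, HLA-E and TAP1 it had 0.07 to 0.46. These values describe 8 libraries that share size factors and depth, and are given with no test.

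By the same measure, the genes most like the mean of the 9 among 13618 candidates with a mean of at least 50 normalized reads were ZFAT (r = 0.989), ISG15 (0.973), ARL16 (0.962), ORC1 (0.955) and SLC39A14 (0.955). The highest of 13618 values over 8 libraries can lie near such levels by chance. The mean of the 9 itself ranged only from -0.11 in shNT replicate 3 to 0.13 in shNT replicate 2 (log2). Shared regulation was not tested. ISG15, an interferon-induced ubiquitin-like protein, averaged 4696.5 ± 394 normalized reads in shSRC1 and 4391 ± 1069 in shNT, with a log2 fold change of 0.13 (limma adjusted p = 0.555).

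HLA-B, HLA-C, HLA-E, TAP1, TAP2 and TAPBP lie in the MHC on chromosome 6, and the surrounding genes were counted to show their background. Of 107 tested coding genes between HLA-F and TAPBP, the 6 class I genes left out, 25 were higher and 7 lower in shSRC1, or 29.9%, with a median log2 fold change of 0.095. Over all 13934 tested coding genes the share was 26.1% and the median 0.022. Around NLRC5 on chromosome 16, 14 of the 40 nearest tested coding genes were higher and 1 was lower, so NLRC5 went the other way from most of its called neighbours. Around ERAP1 on chromosome 5, 10 of 40 were lower and none was higher, with a median of -0.142. Around B2M on chromosome 15, 4 of 40 were lower and none was higher.

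Class I genes are most abundant in immune cells, so markers of other cell types were read in the same libraries. Of 13 leukocyte markers 5 could be tested and none passed. CD3D and MS4A1 had 0 reads in all 8 libraries, and PTPRC, the pan-leukocyte marker CD45, had 1.75 to 5.50 normalized reads in shSRC1 and 0 to 8.36 in shNT, against a floor of 3 reads that corresponds to 2.73 to 5.25 normalized reads in shSRC1 and 2.67 to 2.79 in shNT. The summed level of the list was 690.0 to 740.0 in shSRC1 and 667 to 772 in shNT, most of it CD8A, which averaged 634 ± 24.8 in shSRC1 and 627 ± 71.5 in shNT. Of 10 fibroblast and endothelial markers 6 were tested and none passed, with a sum of 1687 to 2259.6 in shSRC1 and 1862 to 2448 in shNT and PECAM1 at 0. In bulk RNA, fewer cells that express a gene and less RNA per cell cannot be told apart.

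**Figure D4:**
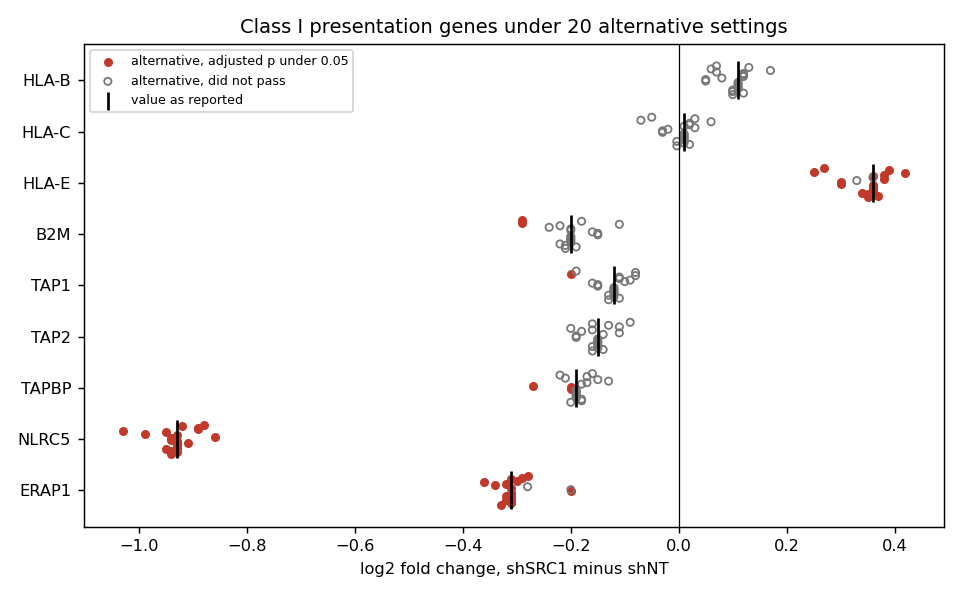
Log2 fold change of the 9 class I presentation genes, shSRC1 minus shNT, under 20 alternative settings of scaling, test, filter, pseudocount, correction and left-out libraries. Filled points passed an adjusted p of 0.05, open points did not, and black ticks are the values in the text. NLRC5 stays between -1.03 and -0.86 and HLA-E between 0.25 and 0.42, while HLA-C lies on both sides of 0.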

How the data were processed

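Poly(A) RNA of 8 LY2 libraries was grouped by the hairpin and replicate number in the labels. The authors deposited 1 table of 63677 genes whose values are a normalized signal: the read count of a gene over the size factor of its library. Within each library 100.0% of values were whole reads, within 0.001 reads, after multiplication by that factor. The GRCh37 build and the tools HTSeq 0.6.1, TopHat2 2.0.12, DESeq and DESeq2 are listed per the submitters' processing notes, and no counting option or strand setting is given in the sources used here.

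Genes that reached 10 normalized reads in 4 or more libraries, 19559 in all, were tested with limma 3.58.1 in R 4.3.3 (trend and robust variances) on log2(value + 1), two-sided, with Benjamini-Hochberg adjustment and a threshold of 0.05. This scale understates changes of genes with low values. Single genes and ratios were also compared by exact two-sided permutation over the 8 libraries. The script was tested on simulated data. Counting error follows depth, from 33771775 to 67022036 reads, and the floor for a count of 0 is 3 reads per library, for counting error only, since the reads carry no molecular identifiers. Replicates differed beyond counting noise, and each library was treated as 1 sample, though this does not show that they came from separate cultures. The chi-square per gene between 2 libraries of a group was 6.5 for shSRC1 replicates 3 and 4. It was 7.7 for shNT replicates 2 and 4, and 22.4 to 90.2 for the other pairs.

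The 9 genes and the 14 gene lists were chosen with earlier results of these data known. Some genes of the lists are not reported here and were left out of their counts. The text names the 9 genes, NCOA1, up to 4 called genes of each list by adjusted p, a fixed set of core pathway genes and the 5 genes most like the mean of the 9. IRF9, CAST, HSP90B1, HLA-G, HLA-DRA, CD8A, PTPRC and other marker genes, and all ratios, were chosen after values were seen. Of 150 list entries, 148 were matched by symbol and 2 by Ensembl identifier. GENCODE 29 is on GRCh38, another build than that of the table, and gave only gene order, chromosome, length, GC content (18787 of the tested genes, 96.1%), exon overlaps and windows of 50 bases shared between transcripts. Alternatives were TMM and upper-quartile scaling, edgeR 4.0.16 and DESeq2 1.42.0 on the recovered reads, a replicate block, a pseudocount of 0.5 or 5, a stricter filter (50 normalized reads) or none, a length and GC correction (splines with 5 degrees of freedom), the block and that correction together, and left-out libraries.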

Additional observations from a re-analysis of the deposited data

Results flagged for a closer look

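A library far from the other 3 of its group was looked for among 100 groups of 4 values, those of the 9 class I genes and the other named genes, by Dixon's test, which takes the gap to the nearest value as a share of the group's range. It was found in 8 groups, and chance alone marks about 1 in 20 groups. None of the 8 belongs to the 9 class I genes. CALR, the calreticulin gene of the peptide-loading complex, had 30934.2 normalized reads in shSRC1 replicate 1, with the nearest shSRC1 value at 28333.7. KRT8 had 235044.8 and KRT19 had 101251.2 in shSRC1 replicate 1, where the nearest shSRC1 values were 204307.7 and 89768.3. In shNT replicate 3, KRT8 had 103827.5 and KRT19 had 46192.1, where the nearest shNT values were 137714.1 and 61703.0. MICA, an NKG2D ligand, had 1850.3 and the peptidase gene BLMH had 1898.6 in shNT replicate 3, where the nearest shNT values were 2338.7 and 2255.9. HLA-DMA, a class II peptide editor, had 177 in shSRC1 replicate 4, with the nearest shSRC1 value at 151.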

How the results depend on the processing

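Over 20 alternative settings, the 9 class I genes gave 180 values, of which 163 kept their direction and their side of the threshold. NLRC5 kept its call throughout, and HLA-B and TAP2 passed under none. The number of class I genes past the threshold, 3, was 5 without shNT replicate 3, and 2 to 5 over the settings that leave out 1 library. The number whose groups do not overlap, 3, was 5 without both shNT replicate 3 and shSRC1 replicate 2, 5 without shNT replicate 3, and 3 to 5 over the settings that leave out 1 library. The share of all tested genes without overlap, 29.0%, was counted for the main test only, so these counts have no background beside them. The median of the 9 genes stayed between -0.168 and -0.110, and the count over all genes between 3124 and 6398. In the text, HLA-E, B2M, TAP1, TAPBP and ERAP1 are given with the left-out libraries that moved them across the threshold.

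With the replicate number as a block, 3 class I genes passed and 5 had groups that did not overlap, and 6398 genes passed in all. With the block and a length and GC correction together, 6 class I genes had groups that did not overlap, ERAP1 did not pass, at -0.20 (limma adjusted p = 0.0587), and TAPBP passed, at -0.20 (limma adjusted p = 0.0362). The share of all tested genes without overlap was not counted under either setting. The counts without overlap are therefore not read as a property of the class I genes. Deviations of same-numbered libraries correlated at 0.242, -0.01, 0.128 and 0.144 for replicates 1 to 4, and those of unlike numbers at -0.21 to 0.13. For shSRC1 replicates 1, 3 and 4 the same number gave the highest value. The labels state no pairing, so the main test used no block, and whether the numbers pair the libraries was not settled. The block moved the calls to 4 of the enhanceosome list (2 with the correction too), to 2 each of the further heavy chains and of the immunoproteasome list, and to 1 of the fibroblast and endothelial markers (also 1 with the correction), by more than 1.5 times in each case. shSRC1 replicate 2 correlated best with shNT replicate 1, at 0.074, and not with its own number.

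The sign of HLA-C turned with TMM scaling (-0.0034), DESeq2 (-0.0035), the length and GC correction with and without the block (-0.03), and without shSRC1 replicate 1 (-0.02), shNT replicate 3 (-0.07) or both shNT replicate 3 and shSRC1 replicate 2 (-0.05). CALR turned with the length and GC correction with and without the block (-0.0037), without shNT replicate 3 (-0.01) and without both libraries (-0.0024). PSMB8 turned without shNT replicate 3 and without both libraries (-0.01). PSMB10 turned without shSRC1 replicate 1 (-0.03) or shNT replicate 3 (-0.04), and CIITA without shSRC1 replicate 3 (-0.03). Over the settings that leave out 1 library or both libraries, these genes ranged from -0.07 to 0.06 (HLA-C), -0.01 to 0.12 (CALR), -0.01 to 0.21 (PSMB8), -0.04 to 0.11 (PSMB10) and -0.03 to 0.22 (CIITA). The cause of these shifts was not tested. Of 819 values of 41 other named genes, 56 no longer passed and 9 changed sign. The median over all tested genes, -0.002 in the text, lay between -0.016 and 0.018 under the alternatives. NLRC5 rests on the fewest reads of the 9 genes. In the other class I genes, changes of about 0.2 (log2), and some larger ones, could be missed here. In the main test B2M, at -0.2, and TAPBP, at -0.19, did not pass. Their confidence intervals from limma ran from -0.43 to 0.03 and from -0.39 to 0.02. The smallest detectable change was not computed.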

Other observations

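Class II molecules present peptides from outside the cell and are not usually made by epithelial cells without interferon gamma. Of 9 tested genes of class II presentation, 2 rose, 1 fell and 6 did not pass in shSRC1. HLA-DRB1 averaged 7367 ± 221 normalized reads in shSRC1 and 4100.0 ± 726 in shNT (SD, n = 4 each), with a log2 fold change of 0.86 (limma adjusted p = 9.66e-05). HLA-DQB1 averaged 1415 ± 64.5 in shSRC1 and 850.0 ± 128 in shNT, with 0.75 (limma adjusted p = 0.000255). Their alpha-chain partners were far lower in every library: HLA-DRA had 23.7 to 92.6 normalized reads in shSRC1 and 20.4 to 68.7 in shNT, and HLA-DQA1 had 8.54 to 29.7 in shSRC1 and 3.71 to 29.7 in shNT. Reads of the near-identical HLA-DRB and HLA-DQB genes could have been shared or lost in counting, so these counts are uncertain. HLA-DMA averaged 156 ± 14.0 in shSRC1 and 206 ± 23.1 in shNT, with -0.40 (limma adjusted p = 0.047), a call that held under 11 of 20 alternative settings. It was lost without shSRC1 replicate 1, 2 or 3 and without shNT replicate 1, 2 or 3 (limma adjusted p = 0.0535 to 0.12).

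NK cells read both missing class I and stress ligands, some of which are themselves class I-like proteins. Of 13 tested ligand genes for NK and T cell receptors, 3 rose, none fell and 10 did not pass in shSRC1. MICA averaged 2855 ± 166 normalized reads in shSRC1 and 2239 ± 261 in shNT, with a log2 fold change of 0.36 (limma adjusted p = 0.0148). MICB averaged 526 ± 27.3 in shSRC1 and 390.0 ± 56.1 in shNT, with 0.44 (limma adjusted p = 0.0129), and ULBP2 averaged 983 ± 21.9 in shSRC1 and 770.0 ± 91.6 in shNT, with 0.36 (limma adjusted p = 0.0168). All 3 are ligands of the activating receptor NKG2D and passed under each of 20 alternative settings. CD274, which encodes PD-L1, had 9.09 to 19.2 normalized reads in shSRC1 and 8.35 to 14.4 in shNT, and did not pass.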
